A study of Sus scrofa with 36 samples.

Results

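The set described here holds 10 genes known as targets of the hypoxia-inducible factors (HIFs): ADM, AK4, ANXA2, CA9, CA12, CP, ERO1A, FAM162A, PLAUR and TMEM45A. The members were found by their symbols in the table of gene counts from neonatal pig heart. They are 10 of the 9815 genes in that table. The rule that names them uses no measured value, but the members were chosen with earlier results of these data known. All 10 passed the filter on low counts (10 or more reads in 3 or more libraries), as did 5526 genes in all.

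HIF is a pair of proteins whose alpha subunit is hydroxylated by prolyl hydroxylases while oxygen is present, recognized by VHL and degraded. When oxygen is low the alpha subunit persists, joins ARNT and binds near its target genes, whose products move metabolism away from mitochondrial oxygen use, handle acid and iron, and act on blood vessels. The heart before birth works at a low arterial oxygen pressure, which rises with the first breaths.

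The hearts came from domestic Yorkshire pigs and were taken on postnatal day 1 (P1), day 3 (P3), day 7 (P7) and day 28 (P28). The sources used here name no surgery, drug or genetic change for these hearts. Total RNA of batch cd, the only batch with gene counts used here, gave 12 libraries, 3 per age, from 12 of the 24 pigs of the study. The youngest age is already after birth, so there is no fetal heart to compare with. Hearts were sampled entire, with myocytes and other cells together, and the study used pigs of both sexes, though the sex of the pigs behind these 12 libraries was not given in the sources used here. Libraries held 8887176 to 14883849 counts over the 4 chromosomes that the table covers (1, 2, 6 and 13), and 7.09% to 19.7% of them came from signal recognition particle RNA genes. That share was 12.9% to 19.5% at P1 and 7.88% to 12% at P28, without overlap. The 7 measured cardiomyocyte markers summed to 70090 to 92020 CPM (reads of a gene scaled to a common library size) in every library, and the hepatocyte genes AHSG and TTR to 0 to 0.504 CPM. In whole tissue, fewer cells of a type and less RNA per cell cannot be told apart. Expression is given as CPM after TMM scaling, as mean ± SD of 3 libraries. A gene was called changed at an adjusted p under 0.05 (edgeR quasi-likelihood test, Benjamini-Hochberg adjustment over the 5526 genes), and log2 fold changes are the later age over the earlier age.

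Between P1 and P28, 5 of the 10 members fell and 0 rose. They were CP, a copper-carrying ferroxidase (6.27-fold lower), TMEM45A, a multipass membrane protein (3.93-fold lower), AK4, an adenylate kinase of the mitochondrial matrix (2.78-fold lower), ANXA2, an annexin that binds membranes in the presence of calcium (2.11-fold lower), and FAM162A, a mitochondrial protein (1.43-fold lower). With the replicate number as a block, 4 members fell, without FAM162A. Over all genes tested, 15.3% were called in this comparison in either direction and 7.93% were called lower. All 10 members had a negative estimate, with a median log2 fold change of -0.71. Without the P1 library carrying number 4, the estimates of ADM (0.36) and ERO1A (0.20) were positive. Over all tested genes the median was 0.004, and 49.7% of the estimates were negative. The other 5 members, PLAUR, ERO1A, ADM, CA9 and CA12, did not pass.

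**Figure D1:**
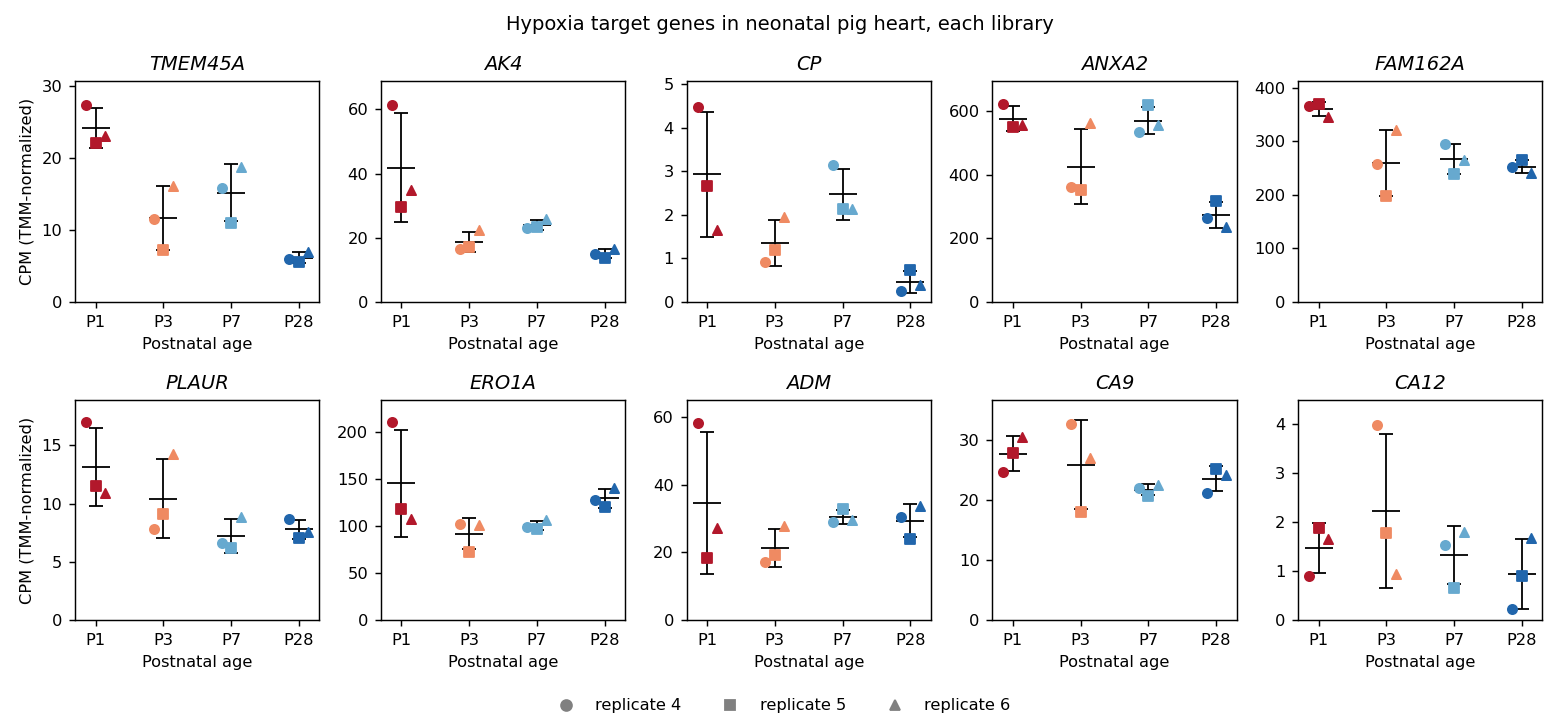
Expression of the 10 hypoxia target genes in each of the 12 libraries, in TMM-normalized CPM on the vertical axis, at the 4 postnatal ages on the horizontal axis; symbols mark the replicate number a library carries, the horizontal line is the mean and the bars are 1 SD (n = 3). For TMEM45A, AK4, CP, ANXA2 and FAM162A every P28 library lies below every P1 library, while ADM, CA9 and CA12 overlap between those ages.

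The members that act in mitochondria were AK4 and FAM162A. AK4 (ENSSSCG00000040337) lies on chromosome 6 from 147177029 to 147257814 in the coordinates of the count table. Its product belongs to the adenylate kinases, which exchange phosphate between adenine nucleotides. It stood at 61.4, 29.5 and 34.9 CPM in the P1 libraries, at 16.4, 17.1 and 22.4 CPM at P3, at 22.9, 23.2 and 25.7 CPM at P7 and at 14.8, 13.8 and 16.6 CPM at P28. No library of a later age reached the lowest P1 library, and the P1 library carrying number 4 stood far above the other P1 libraries. The means were 41.9 ± 17.1 CPM at P1 and 15.1 ± 1.38 CPM at P28 (log2 fold change -1.48, SE 0.25, adjusted p = 0.0023). Without that P1 library the log2 fold change of AK4 from P1 to P28 was -1.10 (adjusted p = 0.00303). AK4 also came nearest to the threshold between P1 and P3, with a log2 fold change of -1.17 that did not pass (SE 0.24, adjusted p = 0.0931). From P1 to P7 the AK4 estimate was -0.81 (adjusted p = 0.0943), and no pair of neighboring ages in the order P1, P7, P3, P28 passed.

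FAM162A (ENSSSCG00000026990; chromosome 13, 138115505 to 138151738) encodes a mitochondrial protein tied to HIF-dependent cell death. Its values were 366, 370 and 346 CPM at P1, 258, 198 and 321 CPM at P3, 295, 239 and 266 CPM at P7, and 252, 265 and 242 CPM at P28. All 3 P1 libraries lay above all 9 later ones. The mean went from 360 ± 12.8 CPM at P1 to 253 ± 11.5 CPM at P28 (log2 fold change -0.51, SE 0.16, adjusted p = 0.0428). This call was the least firm of the 5: it was kept when a P3 library was left out and lost without any of the P1, P7 or P28 libraries (adjusted p 0.00648 to 0.132 over the 12 fits), and it was lost with the replicate block (adjusted p = 0.0532) and under plain library totals (adjusted p = 0.0614). The 3 later ages of FAM162A had means of 259, 267 and 253 CPM, and no difference among them passed. From P1 the estimates for FAM162A were -0.48 at P3 (adjusted p = 0.228) and -0.43 at P7 (adjusted p = 0.171, and 0.0389 with only P1 and P7 fitted), close in size to that at P28.

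TMEM45A (ENSSSCG00000011965; chromosome 13, 158417976 to 158515040), whose mRNA is widely seen to rise in cells under low oxygen, had the smallest p of the set from P1 to P28. It was measured at 27.3, 22.04 and 23.1 CPM at P1, 11.5, 7.21 and 16.1 CPM at P3, 15.8, 10.9 and 18.7 CPM at P7, and 5.94, 5.52 and 7.00 CPM at P28. The P28 libraries lay below all 9 libraries of the other ages and the P1 libraries above all others, with P3 and P7 mixed between them. The means were 24.1 ± 2.80 CPM at P1 and 6.15 ± 0.762 CPM at P28 (log2 fold change -1.97, SE 0.28, adjusted p = 0.00101). TMEM45A also fell between P7 and P28 (log2 fold change -1.30, SE 0.28, adjusted p = 0.00752) and between P3 and P28 (-0.93, SE 0.28, adjusted p = 0.0424). The P3 versus P28 call of TMEM45A held in 4 of the 12 fits that left out 1 library: it was lost without P1 library 5 or 6, P3 library 4 or 6, P7 library 4 or any P28 library (adjusted p up to 0.142), and with only those ages fitted (adjusted p = 0.124). From P1 to P3 the TMEM45A estimate was -1.05 and missed the threshold (SE 0.27, adjusted p = 0.148).

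CP (ENSSSCG00000011700; chromosome 13, 89396685 to 89463538) encodes ceruloplasmin, which oxidizes iron as it leaves cells. It was a low gene in these hearts, with 20 to 60 reads per P1 library and 3 to 9 per P28 library. It stood at 4.48, 2.66 and 1.65 CPM at P1, 0.923, 1.18 and 1.95 CPM at P3, 3.14, 2.13 and 2.13 CPM at P7, and 0.241, 0.741 and 0.394 CPM at P28. All P28 libraries were below all others, while P1 overlapped both P3 and P7, and every P7 library was above every P3 library (log2 fold change 0.84, adjusted p = 0.335). CP fell from 2.93 ± 1.43 CPM at P1 to 0.459 ± 0.256 CPM at P28 (log2 fold change -2.65, SE 0.51, adjusted p = 0.00513). It also fell from P7 to P28, when its mean had been 2.47 ± 0.588 CPM (log2 fold change -2.39, adjusted p = 0.0069). The liver secretes most ceruloplasmin, and the hepatocyte genes AHSG and TTR were at 0 at P3 and P28 and reached 0.504 CPM in sum at most. Part of the CP locus overlaps HPS3, a gene of lysosome-related organelle assembly that had 32.3 CPM at P1 and 43.0 CPM at P28 (log2 fold change 0.41, adjusted p = 0.168). Whether the counting used the strand was not stated.

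The members that act on plasminogen at the cell surface were ANXA2 and PLAUR. ANXA2 (ENSSSCG00000004578; chromosome 1, 111588306 to 111635064), which gathers plasminogen and its activator on membranes, had 624, 551 and 556 CPM at P1, 363, 351 and 562 CPM at P3, 535, 619 and 557 CPM at P7, and 266, 317 and 237 CPM at P28. P1 and P7 overlapped and P28 lay below every other library. The means of ANXA2 were 577 ± 40.8 CPM at P1 and 571 ± 43.5 CPM at P7 (log2 fold change -0.02, SE 0.18, adjusted p = 0.984). At P28 its mean was 273 ± 40.4 CPM, a fall from P1 (log2 fold change -1.08, SE 0.18, adjusted p = 0.00217). From P7 to P28 the log2 fold change was -1.06 (adjusted p = 0.00186) and from P3 to P28 it was -0.64 (adjusted p = 0.0275). One P3 library, number 6, carried the high P3 value of ANXA2, and without it the P3 versus P28 estimate was -0.40 (adjusted p = 0.0764), while the P3 versus P7 estimate became 0.66 and passed (adjusted p = 0.0266). The P3 versus P28 call of ANXA2 was also lost without P28 library 4 (adjusted p = 0.0866) or 6 (adjusted p = 0.103), and with only those ages fitted (adjusted p = 0.109).

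PLAUR (ENSSSCG00000032434; chromosome 6, 50489777 to 50505418) encodes the receptor of urokinase. Its levels were 16.9, 11.5 and 10.9 CPM at P1, 7.85, 9.10 and 14.2 CPM at P3, 6.65, 6.18 and 8.83 CPM at P7, and 8.67, 7.08 and 7.59 CPM at P28. The P1 libraries did not overlap those of P7 or P28. The differences did not pass after adjustment, with a log2 fold change of -0.86 at P7 (SE 0.27, adjusted p = 0.11) and -0.75 at P28 (SE 0.27, adjusted p = 0.0765). PLAUR was called lower at P28 without P3 library 6 (adjusted p = 0.0449) and by the DESeq2 Wald test (adjusted p = 0.0444).

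ERO1A (ENSSSCG00000005037; chromosome 1, 182265261 to 182318195), the oxidase that re-oxidizes protein disulfide isomerase in the endoplasmic reticulum (ER), had its lowest levels at P3 and P7. It stood at 211, 119 and 108 CPM at P1, 103, 73.1 and 101 CPM at P3, 99.5, 97.0 and 107 CPM at P7, and 129, 121 and 141 CPM at P28. The P28 libraries all lay above those of P3 and P7 and inside the range of P1. With all ages in the fit none of these differences passed: the log2 fold change was -0.66 from P1 to P3 (SE 0.22, adjusted p = 0.241), -0.53 from P1 to P7 (adjusted p = 0.257), -0.16 from P1 to P28 (adjusted p = 0.659), 0.36 from P7 to P28 (adjusted p = 0.28) and 0.49 from P3 to P28 (adjusted p = 0.145). With only P7 and P28 fitted, the rise of ERO1A between them passed (log2 fold change 0.34, adjusted p = 0.0236), where 31.7% of all genes were called and 15.0% were called higher. Without P1 library 4, the P3 to P28 difference of ERO1A passed as a rise (log2 fold change 0.48, adjusted p = 0.0344) and the P1 to P28 estimate turned to 0.20 (adjusted p = 0.434). The 2 unnamed genes that overlap ERO1A had P1 means of 0.573 and 2.92 CPM and P28 means of 1.74 and 3.15 CPM. The first rose (log2 fold change 1.57, adjusted p = 0.0313) and the second did not pass (0.11, adjusted p = 0.874).

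The members that handle acid and the vasodilator of the set did not pass between any ages. CA9 (ENSSSCG00000051368; chromosome 1, 236388690 to 236400822), a membrane carbonic anhydrase that faces outward and is among the genes most tightly tied to HIF, had 24.7, 27.9 and 30.6 CPM at P1 and 21.3, 25.2 and 24.2 CPM at P28. These ages overlapped (log2 fold change -0.23, SE 0.19, adjusted p = 0.442). CA9 ranged from 18.1 to 32.7 CPM at P3 and from 20.7 to 22.6 CPM at P7.

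CA12 (ENSSSCG00000004565; chromosome 1, 108649271 to 108710651), another outward-facing carbonic anhydrase, had 3 to 43 reads per library, and the SE of its estimate was about as large as the estimate. It was at 0.896, 1.87 and 1.65 CPM at P1 and 0.241, 0.906 and 1.68 CPM at P28 (log2 fold change -0.67, SE 0.66, adjusted p = 0.531). The estimate was -0.21 without P28 library 4 and -1.35 without P28 library 6, and passed in neither fit. Its whole span lies within that of APH1B, a gamma-secretase subunit gene with 33.1 CPM at P1 and 38.1 CPM at P28.

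ADM (ENSSSCG00000013408; chromosome 2, 49229223 to 49231866) encodes adrenomedullin, a secreted peptide that widens vessels, and is the only ligand of the set. Its P1 libraries were spread from 58.0 CPM (number 4) to 18.4 and 27.2 CPM. At P3 it had 17.2, 19.3 and 27.7 CPM, at P7 28.9, 32.9 and 29.5 CPM, and at P28 30.3, 24.0 and 33.6 CPM. Every P7 library was above every P3 library (log2 fold change 0.51, adjusted p = 0.436), and the other ages overlapped. The direction from P1 to P28 turned on 1 P1 library: the log2 fold change from P1 to P28 was -0.24 (SE 0.33, adjusted p = 0.674) with it and 0.36 (adjusted p = 0.353) without it.

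Per kilobase of the exon length given for each gene, the members covered a wide range of levels. The order of the genes depends in part on that length, 843 bases for FAM162A and 6959 for CA9. At P1, FAM162A stood at 428 CPM per kb and ANXA2 at 103 CPM per kb, followed by ERO1A at 29.6, ADM at 18.8, TMEM45A at 15.1, PLAUR at 9.37, AK4 at 6.15 and CA9 at 3.98 CPM per kb. CP at 0.423 and CA12 at 0.261 CPM per kb were the lowest. The genes that fell by P28 thus included the most and nearly the least abundant of the set.

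To place these differences in time, each comparison was read on its own. The comparisons of P1 with P3, P7 and P28 share the P1 libraries, so their estimates are not independent. In P1 versus P3, 0 of 10 members passed, where 0.0543% of all genes did. At an unadjusted p under 0.05, 6 members (AK4, ANXA2, CP, ERO1A, FAM162A and TMEM45A) were lower, and 15.2% of all genes passed that bar in either direction. The DESeq2 Wald test called 2 members in P1 versus P3, AK4 (adjusted p = 0.00179) and TMEM45A (adjusted p = 0.0197), both lower, where it called 2.21% of the 5525 genes it gave an adjusted p and 0.995% as lower. The median log2 fold change of the members was -0.57, against 0.007 over all genes, and 9 of 10 estimates were negative, the exception being CA12.

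In P1 versus P7, 0 of 10 members passed and 2.01% of all genes did. Here 5 members (AK4, ERO1A, FAM162A, PLAUR and TMEM45A) were lower at an unadjusted p under 0.05, a bar met by 16.1% of all genes, and the DESeq2 Wald test called AK4 (adjusted p = 0.0345) and PLAUR (adjusted p = 0.0425), both lower, beside 6.59% of all genes called by that test and 2.26% called lower. The median of the members was -0.39, against -0.007 over all genes. In P3 versus P7, 0 of 10 members passed and 2.21% of all genes did. At an unadjusted p under 0.05, ANXA2 alone was counted in P3 versus P7, with a log2 fold change of 0.42, and the DESeq2 Wald test called 0 members and 6.57% of all genes. In that comparison 7 members had a positive and 3 a negative estimate.

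In P7 versus P28, 3 of 10 members fell (ANXA2, CP and TMEM45A), beside 18.8% of all genes called and 10.5% called lower. AK4 went from 23.9 ± 1.52 to 15.1 ± 1.38 CPM in this interval without overlap and missed the threshold (log2 fold change -0.67, adjusted p = 0.0731). It passed when the spread was estimated from those ages alone (adjusted p = 0.00632), under plain library totals (adjusted p = 0.0269) and without P1 library 4 (adjusted p = 0.0152). In P3 versus P28, a comparison added after the data were seen, 2 of 10 members fell (ANXA2 and TMEM45A), beside 16.5% of all genes called and 8.51% called lower. Set against the mean of the 3 later ages, P1 was higher for AK4 (log2 fold change -1.15, adjusted p = 0.00813) and TMEM45A (-1.23, adjusted p = 0.00906), 2 of 10 members, beside 2.46% of all genes called and 1.52% called lower. A joint test of any difference among the 4 ages called AK4, ANXA2, CP and TMEM45A, 4 of 10 members, beside 21.4% of all genes.

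The looser thresholds of the study (absolute log2 fold change over 0.5 with p at most 0.05, not adjusted) gave more calls, all of them lower at the later age. They took in 4 of 10 members in P1 versus P3 (AK4, CP, ERO1A and TMEM45A), where 10.6% of all genes met them and 3.64% met them as lower. In P1 versus P7 they took in 4 members (AK4, ERO1A, PLAUR and TMEM45A), beside 11.7% of all genes and 4.07% as lower. In P1 versus P28 they took in 6 members, the 5 called above and PLAUR, beside 23.1% of all genes and 12.1% as lower. Against the mean of the later ages they took in 5 members (AK4, ANXA2, CP, PLAUR and TMEM45A), beside 9.41% of all genes and 4.52% as lower.

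**Figure D2:**
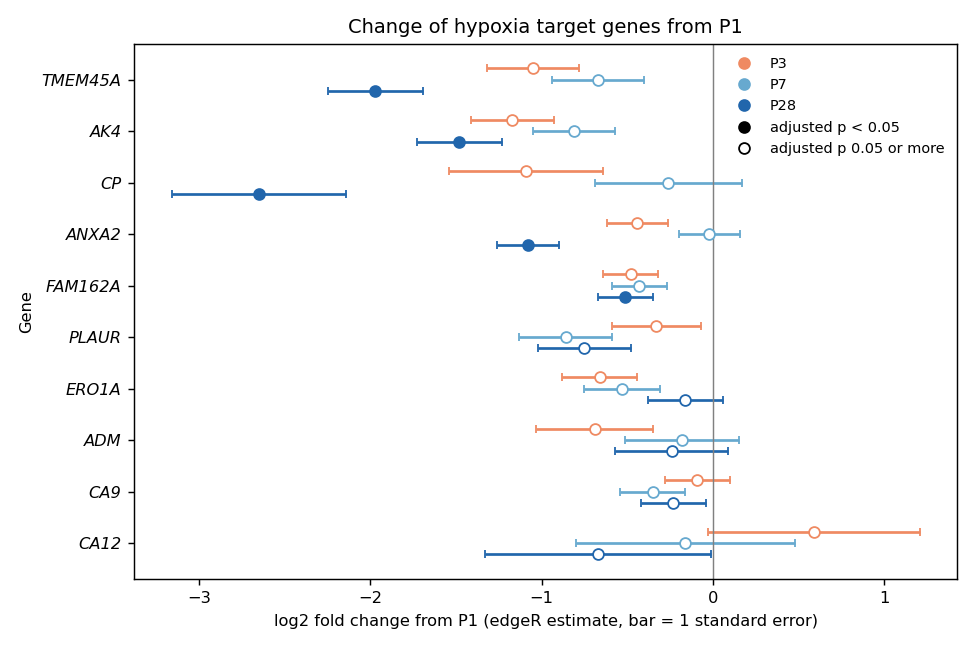
Log2 fold change from P1 to P3, P7 and P28 for each of the 10 hypoxia target genes (horizontal axis, edgeR estimate; bars are 1 standard error); filled points passed an adjusted p of 0.05 and open points did not. The filled points are the 5 genes called at P28, from -2.65 for CP to -0.51 for FAM162A, and no P3 or P7 point is filled.

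Libraries of the same age did not sit equally for these genes. The P1 library carrying number 4 was above its age mean for 8 of 10 members, by 0.91 (ADM), 0.69 (CP), 0.62 (AK4), 0.60 (ERO1A) and 0.39 (PLAUR) on the log2 scale, and was below it for CA9 and CA12. The median deviation of the 10 members in that library was 0.289, while that of all tested genes was -0.001. Its share of signal recognition particle counts was 19.5%, against 14.1% and 12.9% in the other P1 libraries, and its TMM factor of 0.9004 was the lowest of the 12. At P3, library 6 was above its age mean for 9 of 10 members (median 0.371) and library 5 for 0 of 10 (median -0.192). The part of depth, RNA composition or the state of the animal in these deviations was not tested. At P7 and P28 the median deviations of the members stayed between -0.113 and 0.081.

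**Figure D3:**
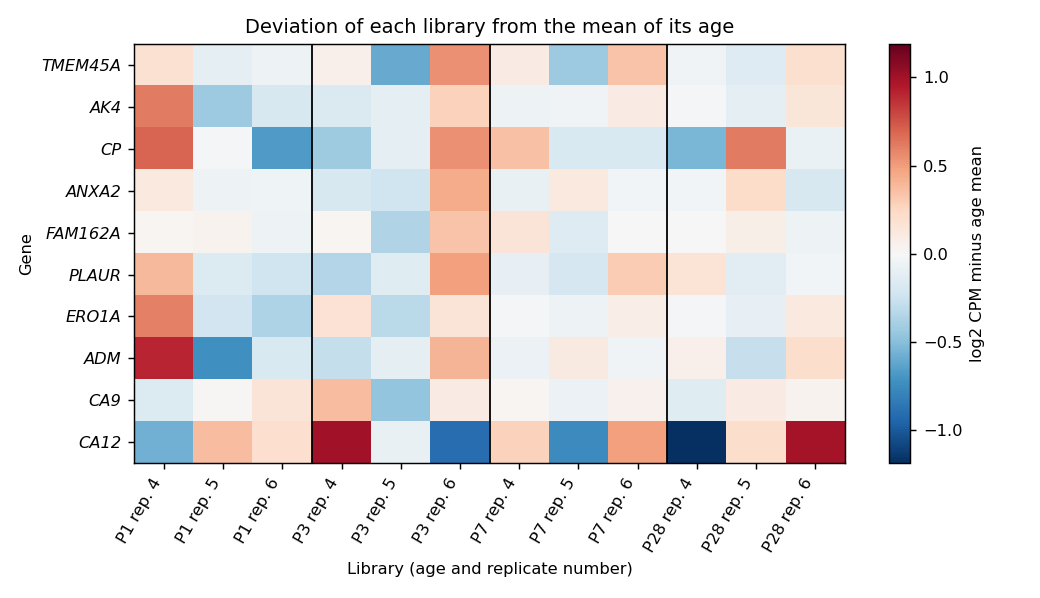
Deviation of each library from the mean of its age for the 10 hypoxia target genes, in log2 CPM (color scale), with libraries on the horizontal axis in order of age. P1 library 4 and P3 library 6 are red for most genes and P3 library 5 is blue or pale, and CA12, a gene of few reads, shows the widest swings.

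The other genes of these pathways that the table holds were counted in the same P1 versus P28 comparison, from lists chosen with earlier results of these data known. Leaving out the members themselves, 14 of 52 tested genes passed, 10 lower and 4 higher, beside the 15.3% of all genes called and 7.93% called lower. With the 9 members that are in a list, 18 of 61 passed, and leaving out 1 library moved that count to between 11 (without P28 library 4) and 24 (without P3 library 5). The counts of single lists below are to be read against the same shares, and most rest on few genes. Of the genes that sense oxygen or control HIF itself, 0 of 8 passed with edgeR. HIF1A, the alpha subunit, was at 319 ± 23.2 CPM at P1 and 250 ± 30.3 CPM at P28 (log2 fold change -0.36, adjusted p = 0.218), and VHL, which marks it for degradation, was at 31.3 and 29.8 CPM (adjusted p = 0.809). HIF3A, whose products include inhibitors of the other alpha subunits, had 89.1 ± 7.77 CPM at P1, 123 ± 105 CPM at P3, 41.0 ± 9.89 CPM at P7 and 125 ± 15.2 CPM at P28, with a wide spread at P3 and a rise from P7 to P28 (log2 fold change 1.60, SE 0.45, adjusted p = 0.0258). SIAH1, a ubiquitin ligase that targets prolyl hydroxylases, rose in the same interval (log2 fold change 0.50, adjusted p = 0.0231). They were 2 of the 8 oxygen sensing genes, beside 18.8% of all genes called from P7 to P28 and 8.34% called higher. HIF1A, VHL, HIF3A and SIAH1 were named after their values were seen.

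Among 20 tested genes of a list of other HIF targets, 5 fell from P1 to P28, 2 rose and 13 did not pass. Of all genes, 15.3% were called in that comparison and 7.93% were called lower. The collagen lysyl hydroxylases were on the falling side: PLOD1 went from 395 ± 76.3 to 175 ± 12.2 CPM (log2 fold change -1.18, adjusted p = 0.000316) and PLOD2 from 166 ± 22.1 to 84.3 ± 8.26 CPM (-0.98, adjusted p = 0.00153). So were the glycolytic enzyme genes ENO1, from 756 ± 258 to 280 ± 21.98 CPM (-1.43, adjusted p = 0.00291), and PFKL (-1.11, adjusted p = 0.00908), and TPBG, a membrane glycoprotein gene (-0.80, adjusted p = 0.0473, and 0.0692 with the replicate block). GPI, also a glycolytic enzyme gene, did not pass, with 1090 CPM at P1 and 1063 CPM at P28 (-0.04, adjusted p = 0.887). PGM1, of sugar phosphate metabolism, had 710 and 737 CPM and did not pass (adjusted p = 0.925). KLHL24, from 1050 ± 135 to 1964 ± 234 CPM (0.90, adjusted p = 0.00149), and PNRC1, a nuclear receptor coactivator (0.82, adjusted p = 0.0139), rose. PFKL, TPBG, GPI, PGM1 and PNRC1 were named after their values were seen. The median of this list was -0.09. In P1 versus P7, ENO1 was the only gene of the list that passed, falling to 343 CPM (-1.14, adjusted p = 0.0396), beside 2.01% of all genes.

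In the families around the members, some genes passed with them from P1 to P28, beside 15.3% of all genes called and 7.93% called lower. AK4 was the only 1 of 6 adenylate kinase genes to pass. AK3, its matrix neighbor that uses guanosine triphosphate, had 127 ± 7.43 CPM at P1 and 181 ± 7.63 CPM at P28 without overlap and narrowly missed the threshold (log2 fold change 0.52, adjusted p = 0.055); it was named after its values were seen. Of 6 mitochondrial low-oxygen factors, FAM162A, its paralog FAM162B (28.3 to 14.5 CPM, -0.96, adjusted p = 0.0287) and HIGD2A, a respirasome assembly factor (247 to 163 CPM, -0.60, adjusted p = 0.0207), fell and 0 rose. Both measured annexins fell, ANXA1 from 206 ± 30.8 to 103 ± 7.28 CPM (-1.01, adjusted p = 0.0117).

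Among 5 genes of plasminogen activation, ANXA2 and ENO1, whose product also binds plasminogen at the cell surface, fell. SERPINB2, an inhibitor of plasminogen activators, rose from 215 ± 104 to 621 ± 359 CPM (1.53, SE 0.39, adjusted p = 0.0205). In copper and iron handling, CP fell and FTL, the ferritin light chain, rose from 745 ± 64.7 to 1098 ± 92.3 CPM (0.56, adjusted p = 0.00784), and the other 4 of 6 did not pass. Of 7 genes of ER oxidative folding, GPX7 (37.7 to 22.6 CPM, -0.74, adjusted p = 0.0253) and PDIA5 (51.0 to 34.6 CPM, -0.56, adjusted p = 0.0401, and 0.0532 with the replicate block) fell, and ERO1A was among the 5 that did not pass. Of 4 carbonic anhydrases tested, 0 passed with edgeR. Of the adrenomedullin pathway only ADM itself was analysed here.

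**Figure D4:**
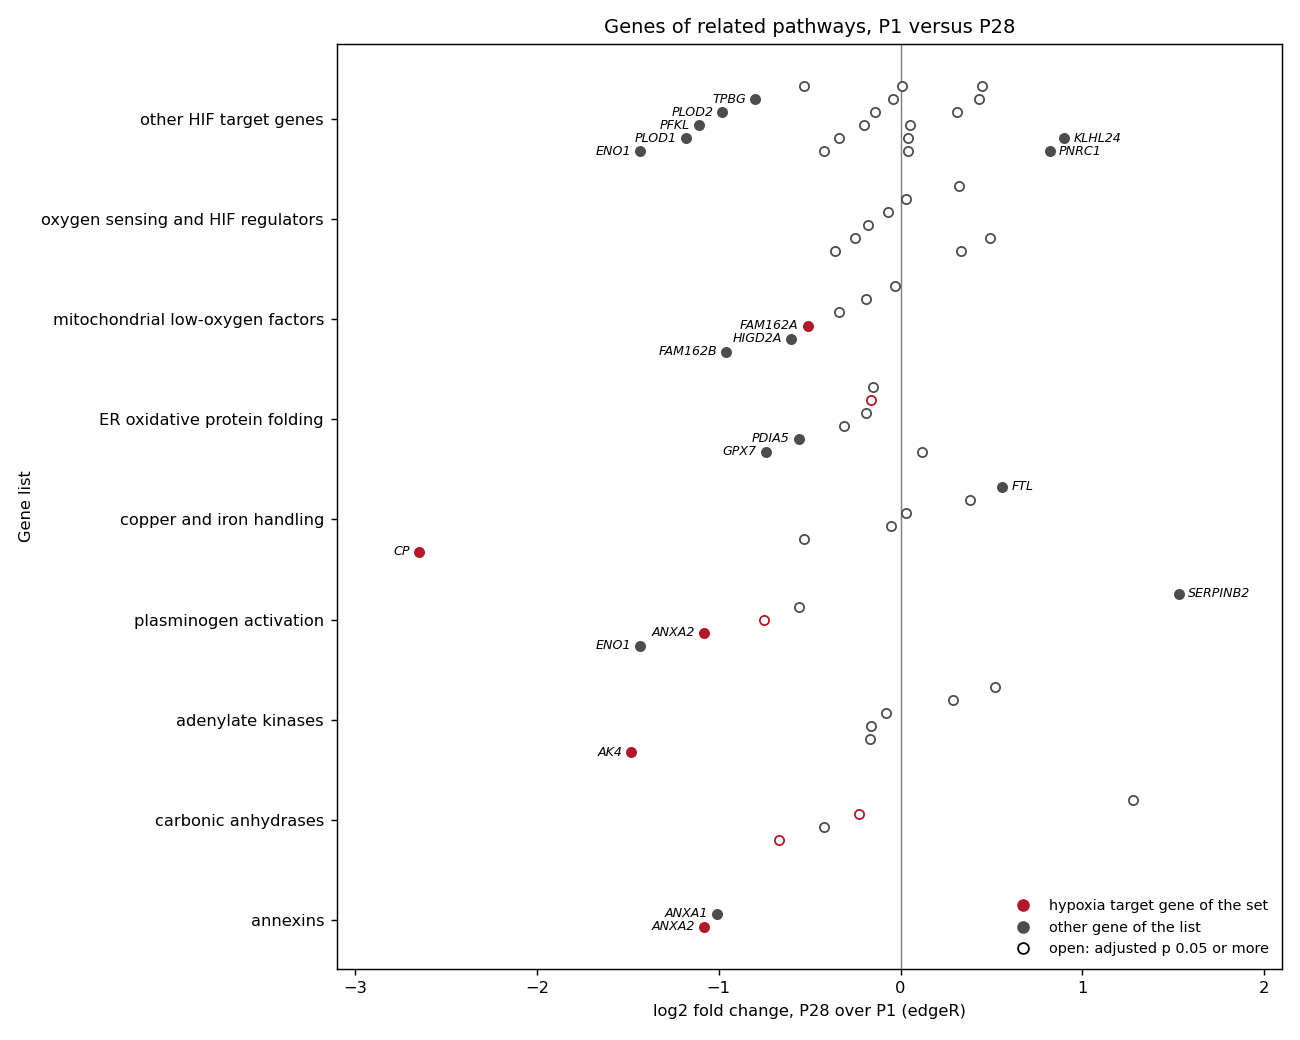
Log2 fold change from P1 to P28 (horizontal axis) of each tested gene in 9 lists around the hypoxia target genes (vertical axis); red points are members of the hypoxia set (ADM and TMEM45A are in no list drawn), grey points are other genes, and filled points passed an adjusted p of 0.05 and carry their symbol. Filled points lie mostly on the left, from CP at -2.65 to FAM162A at -0.51, and 4 lie on the right, KLHL24, PNRC1, FTL and SERPINB2, while no gene of oxygen sensing is filled.

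Markers of several cell types also differed between P1 and P28. Of fibroblast markers, TCF21, a transcription factor of cardiac fibroblasts and epicardium, fell from 41.2 to 19.8 CPM (log2 fold change -1.05, adjusted p = 0.000678), and PDGFRB was at 215 and 200 CPM (adjusted p = 0.844). The epicardial markers TBX18 and ALDH1A2 fell, from a sum of 140 to 193 CPM at P1 to 92.1 to 108 CPM at P28, while the mesothelial gene CALB2 was at 0 in every library. The 7 measured macrophage and monocyte markers summed to 487 to 686 CPM at P1 and 760 to 1246 CPM at P28, and 2 of the 7 rose (TYROBP and C1QB). The lymphocyte markers CD22 (2.03 to 11.4 CPM, log2 fold change 2.49, adjusted p = 0.000663) and CD5 (1.78, adjusted p = 0.0415) rose, as did the neutrophil marker CSF3R (1.41, adjusted p = 0.0415, and 0.0563 with the replicate block). The third lymphocyte marker tested, CD79A, had 628 CPM at P1 and 559 CPM at P28 (-0.17, adjusted p = 0.439), and the lymphocyte marker sum, 623 to 638 CPM at P1 and 527 to 608 CPM at P28, was mostly CD79A. Of 3 endothelial markers, TEK rose (0.53, adjusted p = 0.0356), while the estimates of TIE1 (-0.32, adjusted p = 0.283) and CDH5 (-0.35, adjusted p = 0.392) were negative and did not pass. Of the cardiomyocyte markers, ACTC1 fell (-0.60, adjusted p = 0.034), MYBPC3 rose (0.57, adjusted p = 0.0158) and the other 5 of 7 did not pass. The markers given here that did not pass were named after their values were seen. ANXA2 and PLAUR are expressed in stromal or myeloid cells as well as in muscle, and the part of these cells in the differences was not tested.

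The genes most like TMEM45A over the 12 libraries, by the correlation of log2 CPM, were TM4SF1 (Pearson r = 0.97), ATL3 (0.951), PLOD2 (0.943), LRRC42 (0.93) and ANXA1 (0.93). For ANXA2 they were CD109 (0.961), FSTL1 (0.96), the unnamed gene ENSSSCG00000036505 (0.958), GLIPR2 (0.955) and AIF1L (0.94). These were the 5 highest of all tested genes for each member, and the libraries share their ages, so the values are descriptions. PLOD2, a target of HIF, and ANXA1, an annexin, thus stood among the genes nearest to TMEM45A.

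No oxygen level is used here. Another known HIF target, miR-210, was measured in the small RNA libraries of the same batch. It is the miRNA most widely induced by HIF and lowers mitochondrial iron-sulfur cluster assembly. MiR-210 stood at 217, 216 and 172 CPM at P1, 139, 134 and 74.0 CPM at P3, 65.1, 72.4 and 67.2 CPM at P7, and 21.7, 21.7 and 21.9 CPM at P28. The ages followed each other without overlap, although the lowest P3 library was close to the highest P7 library. MiR-210 fell from 201 ± 25.3 CPM at P1 to 21.8 ± 0.158 CPM at P28, 9.25-fold lower (log2 fold change -3.21, SE 0.23, adjusted p = 1.23e-07 over 305 miRNA entries with edgeR, of which 42% were called and 22% were called lower). Between consecutive ages the log2 fold change of miR-210 was -0.79 from P1 to P3 (adjusted p = 0.0248, 1.31% of entries called lower), -0.77 from P3 to P7 (adjusted p = 0.0265, 12.1% called lower) and -1.65 from P7 to P28 (adjusted p = 9.06e-05, 14.4% called lower). The first and second of these steps each passed in 7 of the 12 fits that left out 1 library. The first was lost without any P1 library, P3 library 6 or P7 library 4, and the second without P3 library 4 or 5 or any P7 library.

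From P3 to P7, when miR-210 fell, 7 of the 10 hypoxia target genes had a higher mean at P7, among them the 5 called between P1 and P28, and PLAUR, CA9 and CA12 had a lower one. None of these differences in the genes passed. The P3 library carrying number 6, in which 9 of 10 hypoxia target genes were above the P3 mean, had the lowest miR-210 of its age. The miRNA values and the gene values come from different libraries with their own scaling, so their levels were not compared.

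**Figure D5:**
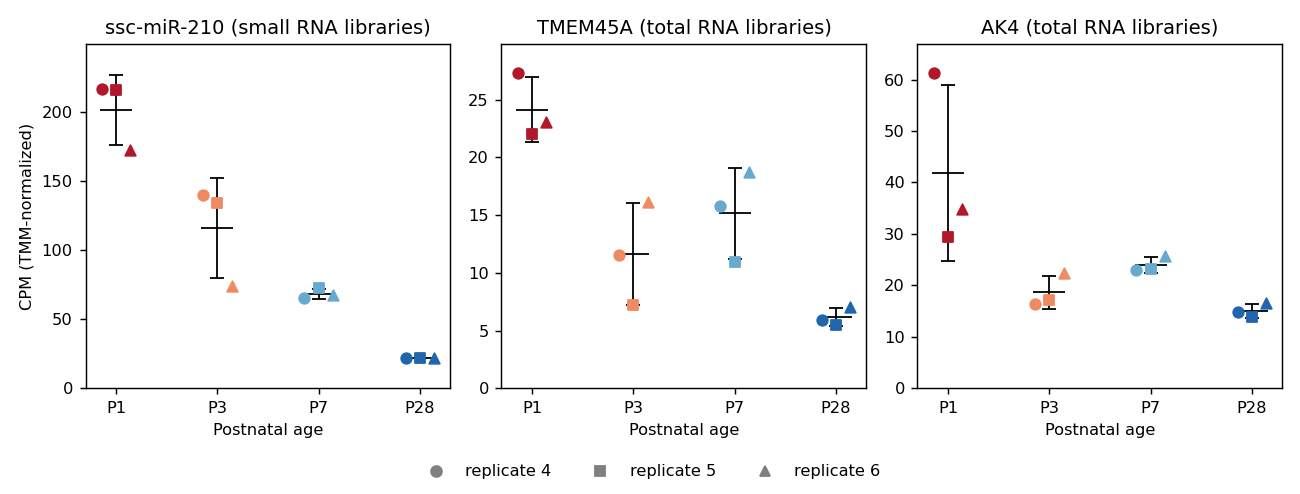
Levels of miR-210 in the small RNA libraries beside TMEM45A and AK4 in the total RNA libraries, in TMM-normalized CPM on the vertical axes, by postnatal age; points are libraries with their replicate numbers, lines are means and bars are 1 SD (n = 3). MiR-210 steps down at each age from 201 to 21.8 CPM, while TMEM45A and AK4 have higher means at P7 than at P3.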

How the data were processed

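The authors extracted RNA from pig heart and sequenced it in 3 batches (36 samples). Gene data come from batch cd, 12 pigs. The deposited gene table holds raw read counts per gene and exon lengths. The deposited miRNA table holds estimated counts, with multi-precursor reads split between entries. They were rounded to whole numbers. Per the labels, STAR 2.7.9a, MultiQC 1.11 and Sscrofa10.2 were named for the series. The gene counter, its strand setting and the build of the gene table were not given in the sources used here; chromosome 1 positions reach 274280751, and all 10 members overlap the locus of the same symbol in RefSeq Sscrofa11.1. The table covers 4 chromosomes and its last line, which breaks off, was left out, so CPM are relative to these chromosomes. The 3 circRNA tables were not used, since they name no host gene.

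Columns were assigned to ages by their names. They carry replicate numbers 4 to 6 where the sample titles carry other numbers, so libraries are named by column. Each is taken as 1 pig, and p-values measure the spread among 3 pigs per age. Replicates were checked and none was a duplicate.

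Genes with 10 or more counts in 3 or more of 12 libraries were fitted in 1 model by age with edgeR 4.0.16 (TMM, quasi-likelihood test) in R 4.3.3, without a replicate block, with Benjamini-Hochberg adjustment over all 5526 genes. The script was tested on simulated data with 200 changed genes. Log2 CPM for likeness used a prior count of 2. Alternatives used DESeq2 1.42.0, limma 3.58.1, other scalings and filters (none, or 50 counts), a replicate block, the compared ages alone, and each library left out. The comparisons with P1 are those of the study, which ran DESeq2 and Linnorm. The other comparisons and the joint test over ages were added here. Same-numbered P1 and P28 gene libraries deviated together (r from 0.138 to 0.331, 3 of 3 pairs over 0.1), so the blocked values are given beside the results they change. No other pair of ages met this, and the labels give no shared litter or day. Libraries of different numbers had r from -0.263 to 0.249, with 0.198 for P1 library 5 and P28 library 6. Figures were drawn with matplotlib 3.10.9.

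The members, the gene lists and the tests were chosen with earlier results of these data known. All members are named in full. Of each list, at most 4 genes that passed between P1 and P28 are named, those with the smallest p, and of the 2 members with the smallest p over the ages, the 5 most similar genes. Others are marked as named after their values were seen. CP and CA12 had as few as 3 reads in a library.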

Additional observations from a re-analysis of the deposited data

How the results depend on the processing

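The calls of AK4, ANXA2, CP and TMEM45A between P1 and P28 kept their direction and passed in every alternative that tested them and in all 12 fits that left out 1 library. The filter of 50 counts removed CP and CA12. FAM162A lost its call under plain library totals and under the replicate block. Without the signal recognition particle genes, 5 members passed between P1 and P28, beside 15.3% of all genes. The number of members passing between P1 and P28 was 4 to 6 when 1 library was left out. Between P1 and P3 it was 0 to 0, between P1 and P7 0 to 1, for P1 versus the later mean 2 to 5, for P3 versus P7 0 to 1, for P7 versus P28 3 to 4, for P3 versus P28 0 to 4, for any age difference 4 to 6, and over the lists 11 to 24 of a count of 18. The 11 came without P28 library 4 and the 24 without P3 library 5, the 5 for the later mean and the 1 for P3 versus P7 without P3 library 6, and the 1 for P1 versus P7 without P3 library 5. For P3 versus P28 the 4 came without P1 library 4, and the 0 without P3 library 6, P28 library 4 or P28 library 6.

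Other counts of members that moved by over 1.5 times, or from or to 0, were those by the DESeq2 Wald test (2 between P1 and P3, 2 between P1 and P7, 5 for the later mean, beside 5.27% of all genes), by limma voom (1 for P3 versus P28, beside 15.2%), without a filter (1 between P1 and P3, beside 0.406%), with only the compared ages (1 for P1 versus P7, FAM162A as lower; 5 for P7 versus P28, 4 lower and ERO1A higher; 0 for P3 versus P28; beside 6.58%, 31.7% and 8.26% of all genes called) and by the thresholds of the study, chosen after seeing the data (4, 4 and 5 for P1 versus P3, P7 and the later mean). The cause was not tested.

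Estimates that changed sign belonged to differences that did not pass. Under plain library totals they were 0.12 for ANXA2 from P1 to P7, and -0.01 both for CA9 and for PLAUR from P7 to P28. With 1 library left out, ADM ranged from -0.50 to 0.42 (P1 to P7), -0.55 to 0.36 (P1 to P28), -0.68 to 0.23 (later mean) and -0.16 to 0.08 (P7 to P28), ANXA2 from -0.07 to 0.04 (P1 to P7), CP from -0.55 to 0.18 (P1 to P7), ERO1A from -0.35 to 0.20 (P1 to P28) and -0.01 to 0.20 (P3 to P7), and PLAUR from -0.01 to 0.27 (P7 to P28). CA12 ranged from -0.16 to 0.98 (P1 to P3), -0.45 to 0.19 (P1 to P7) and -0.34 to 0.12 (later mean), CA9 from -0.30 to 0.10 (P1 to P3) and -0.34 to 0.06 (P3 to P28), and FAM162A from -0.12 to 0.22 (P3 to P7), -0.20 to 0.14 (P3 to P28) and -0.17 to 0 (P7 to P28). MiR-210 (ssc-miR-210) ranged from -0.99 to -0.56 between P1 and P3 and from -1.0 to -0.55 between P3 and P7, with adjusted p up to 0.136 and 0.134.

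Over all ages the replicate numbers did not pair the libraries: same-numbered libraries had deviations correlated from -0.186 to 0.331 over 18 pairs, and 5 pairs exceeded 0.1, 3 of them the pairs of P1 with P28. With the replicate block, 4 members passed between P1 and P28, 15 list genes passed, and FAM162A had an adjusted p of 0.0532; the other counts of members were 0 (P1 versus P3), 0 (P1 versus P7), 2 (later mean), 0 (P3 versus P7), 3 (P7 versus P28), 2 (P3 versus P28) and 4 (any age). Besides FAM162A, the block ended the calls of TPBG, PDIA5 and CSF3R between P1 and P28 and changed no other call of a member, list or marker gene there. The calls of miR-210 passed with the block too, a fit added after seeing the data; its libraries were not paired by number (r from -0.269 to 0.237).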
